A study of Danio rerio with 26 samples.

Results

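Glycolysis turns glucose into pyruvate in the cytosol and yields ATP without oxygen, and lactate dehydrogenase then links pyruvate to lactate. The brain depends on glucose, and its neurons and glia use different forms (isozymes) of several of these enzymes. Rotenone, with which every fish of this study was treated, blocks complex I of the mitochondrial respiratory chain, the route by which cells otherwise oxidize pyruvate. The genes described here code for the enzymes from hexokinase to lactate dehydrogenase. They were found by symbol from a list of 31 zebrafish names, with a name that lacks its last letter a or b also accepted. Of the 31 names 30 matched, and together they gave 30 rows among 32105 genes. Paired names such as gpia and gpib matched the same rows. The 30 genes cover 10 enzymatic steps. The name without a row was pgk1, for phosphoglycerate kinase. In this list 18 of the 30 rows share a capital symbol with another row in the names table, as duplicated copies of a gene do, and each copy is told apart here by its Ensembl identifier.

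RNA was sequenced from the brains of 26 male zebrafish (Danio rerio) in 3 groups. Fish 1 year old of the strain labelled AB JxTu received rotenone at 3.75 nM (10 libraries) or at 37.5 nM (9 libraries). Fish 3 years old of the strain labelled AB JxTu Tg(flk:mCherry), a line with a red fluorescent protein under an endothelial promoter, received 37.5 nM (7 libraries). No untreated fish are among them, so no level here is a level without rotenone. Age cannot be told apart from the strain label, and concentration cannot be told apart from the count table, since the 3.75 nM libraries fill a table of their own. Library totals ran from 20.6 to 36.0 in units of 1000000 counts, with group medians of 27.2, 27.2 and 25.9. Title numbers form a lower (first) and a higher (second) run, each with fish of all 3 groups, and the labels do not say what the runs are.

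Markers of brain cells were high in every library. The summed level of 17 neuron marker genes lay between 9744 and 12474 CPM (counts per 1000000, with TMM-scaled library totals), that of 12 radial glia and astroglia markers between 4585 and 6722 CPM, and that of 9 oligodendrocyte markers between 7110.2 and 19220.4 CPM. A pair of libraries stood apart with skeletal muscle RNA. The summed level of 27 muscle markers, all of them with counts, was 3191 CPM in replicate 4 of the 1 year fish at 37.5 nM and 2359 CPM in replicate 4 of the 1 year fish at 3.75 nM, whereas the next highest libraries of these groups had 136 and 190.1 CPM. The 7 libraries at 3 years had between 45.9 and 105 CPM. The first of these libraries also had a high pituitary score (4.48 log2 units above the median library) and the second a high skin score (3.78). Results that rest on these libraries are given with and without them.

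In these brains 1 gene, or a pair of genes, supplied most of the RNA of each step. Levels were compared between genes as CPM per kilobase, with gene lengths recovered from the deposited scores. GAPDHS, a glyceraldehyde 3-phosphate dehydrogenase, had the highest level of the 30 genes at 1595 ± 122 CPM per kilobase (SD, n = 26), rank 20 of 20644 genes with a length. ALDOC ENSDARG00000019702, an aldolase C, followed at 1236 ± 92.9, rank 24. After these came LDHB, the lactate dehydrogenase subunit of heart type, at 438 ± 44, ENO1 ENSDARG00000022456, an alpha enolase, at 430.0 ± 37.6, and PKM ENSDARG00000099730, a pyruvate kinase, at 412 ± 33.8 CPM per kilobase. The SDs of these last 3 genes overlap, and the order of their means was not tested. ALDOA ENSDARG00000011665 was at 331 ± 41.4, GPI ENSDARG00000012987 at 231 ± 18.4, and eno2 and TPI1 ENSDARG00000040988 at 205 ± 15.2 and 201 ± 28.4, again within their spread of each other. The most abundant genes of the remaining steps were lower, with PFKP ENSDARG00000028000 at 125 ± 8.99, pgam1b at 103 ± 7.45 and HK1, the hexokinase that opens the pathway, at 83.1 ± 5.97 CPM per kilobase.

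**Figure D1:**
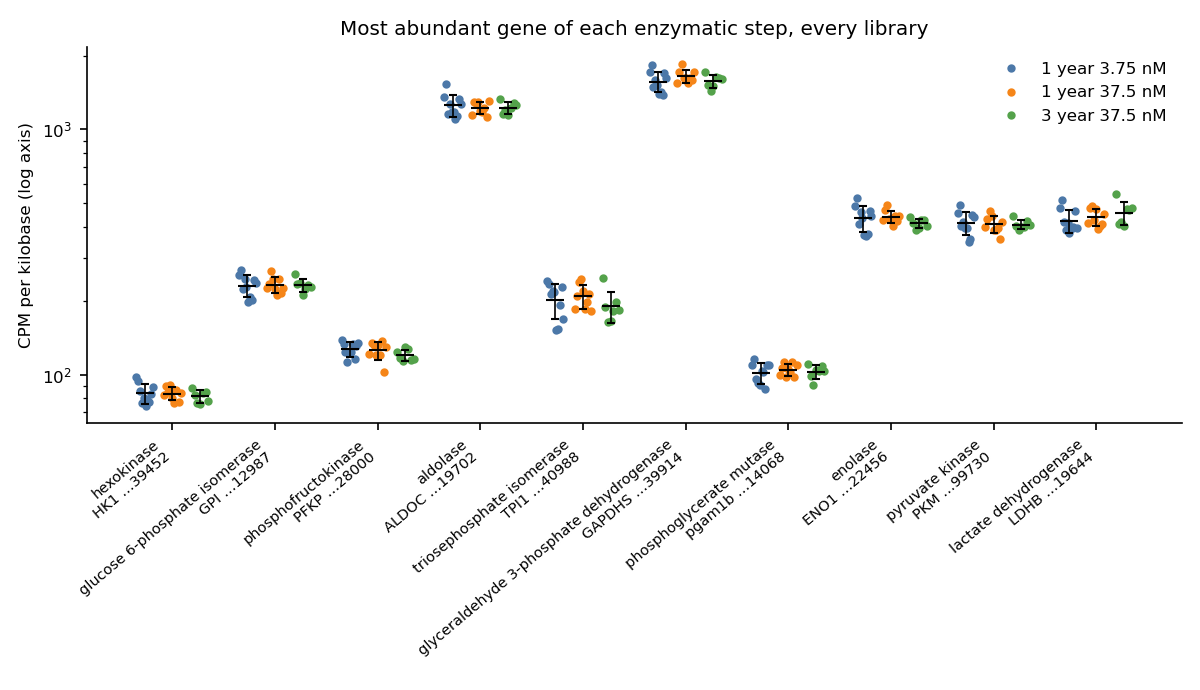
Level of the most abundant gene of each of the 10 steps in every library, in CPM per kilobase on a log axis, labelled with the symbol and the last digits of the Ensembl identifier. Points are libraries, coloured by group, and black bars are the group mean with its SD; the 3 groups overlap at every step, from HK1 near 83.1 to GAPDHS near 1595 CPM per kilobase.

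Hexokinase traps glucose in the cell by phosphorylation. HK1 took 98% ± 0.642 of the summed CPM per kilobase of its step (SD, n = 26), and HK2, the form that insulin-sensitive tissues of mammals use, took 1.97%. In the 3.75 nM group HK1 ranged from 304 over a median of 333 to 397 CPM, in the 1 year 37.5 nM group from 312 over 342 to 369, and at 3 years from 309 over 335 to 358. The 3 ranges overlap almost entirely. HK2 averaged 4.77 ± 1.98, 5.26 ± 1.05 and 6.22 ± 1.35 CPM in these groups, in the same order, with overlapping ranges. Glucose 6-phosphate isomerase converts the product to fructose 6-phosphate. GPI ENSDARG00000012987 held 99.2% ± 0.584 of this step, at medians of 558, 541 and 557 CPM in the 3 groups and a full range of 473 to 642 CPM. The second copy, GPI ENSDARG00000103826, had medians of 2.72, 2.59 and 3.18 CPM.

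Phosphofructokinase commits the sugar to glycolysis and is its main point of control. Of 6 genes, PFKP ENSDARG00000028000, the platelet form, held 72.4% ± 2.7 of the step. It ranged from 417 over a median of 478 to 517 CPM at 3.75 nM, from 383 over 486 to 512 at 1 year and 37.5 nM, and from 426 over 439 to 484 at 3 years. The liver-type copies PFKL ENSDARG00000099755 and PFKL ENSDARG00000060504 held 10.9% and 10.8%, and PFKP ENSDARG00000012801 held 5.34%. The muscle-type copies PFKM ENSDARG00000060797 and PFKM ENSDARG00000014179 held 0.244% and 0.281%, with median shares of 0.0541% and 0.183%. The share of PFKL ENSDARG00000099755 was 10.2% ± 1 in the 1 year fish and 12.3% ± 1.71 in the 3 year fish at 37.5 nM, while that of PFKP ENSDARG00000028000 was 73.7% ± 2.77 and 70% ± 2.03. The summed level of the step was 170.2 ± 12.9 and 172 ± 5.91 CPM per kilobase in the same groups.

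Aldolase splits fructose bisphosphate into a pair of triose phosphates. ALDOC ENSDARG00000019702 held 75% ± 2.74 of the step and ALDOA ENSDARG00000011665 held 20.1% ± 1.82. The former ranged from 2434 over a median of 2696 to 3353 CPM at 3.75 nM, from 2478 over 2684 to 2858 at 1 year and 37.5 nM, and from 2520.2 over 2686 to 2934 at 3 years, so that the 3 medians differ by less than the spread within any group. A second aldolase C copy, ALDOC ENSDARG00000057661, held 4.63% ± 2.79 and is described separately below for its variation between fish. Triosephosphate isomerase makes the triose phosphates interchangeable. TPI1 ENSDARG00000040988 held 81.4% ± 2.2 of this step, with medians of 447, 436 and 383 CPM and a range of 315 to 512 CPM over all libraries, and TPI1 ENSDARG00000025012 held 18.6%.

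Glyceraldehyde 3-phosphate dehydrogenase makes the first NADH of the pathway. In these brains 99.1% ± 2.59 of the RNA of this step came from GAPDHS, whose mammalian namesake is the sperm-specific enzyme. The gene named GAPDH, commonly used as a reference gene in other species, held 0.944%, with a median share of 0.315%. GAPDHS ranged from 2009.8 over a median of 2259 to 2659 CPM at 3.75 nM, from 2235 over 2348 to 2681 at 1 year and 37.5 nM, and from 2082 over 2324 to 2484 at 3 years. The phosphoglycerate kinase step, next in the pathway, has no row under the name pgk1. A single gene of this enzyme, named PGK2 (ENSDARG00000054191) in the names table, was measured at 534 ± 38.9 CPM in 1 year and 496 ± 24.9 CPM in 3 year fish at 37.5 nM (log2 fold change -0.11, SE 0.05, edgeR adjusted p = 0.175). It may be the gene that other sources call pgk1, which the names table does not settle, and it is not counted among the 30 genes.

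Phosphoglycerate mutase moves the phosphate group, and here a pair of copies shared the step. The gene pgam1b held 60.9% ± 3.95 and pgam1a 37.5% ± 3.22, whereas the muscle-type PGAM2 held 1.6%, with a median share of 0.969%. The range of pgam1b was 227 to 304 CPM over all libraries, with medians of 268, 274 and 269.8 CPM. Enolase removes water. ENO1 ENSDARG00000022456 held 60.5% ± 2, and eno2, the gamma enolase used as a marker of neurons in mammals, held 29% ± 1.56. ENO1 ENSDARG00000013750 held 7.71% and the muscle-type ENO3 2.8%, the latter with a median share of 2.39%. The most abundant enolase gene had medians of 1260.1, 1229 and 1188 CPM in the 3 groups, within a range of 1055 to 1499.7 CPM.

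Pyruvate kinase closes glycolysis. PKM ENSDARG00000099730 held 99.7% ± 0.751 of this step, with medians of 1114, 1088 and 1094 CPM and a range of 945 to 1341 CPM. Lactate dehydrogenase interconverts pyruvate and lactate as a tetramer of subunits. LDHB held 69.6% ± 3.52, LDHA, the subunit of muscle type, 26% ± 3.57, and ldhbb 4.41%. LDHB had medians of 665, 695 and 769 CPM and LDHA medians of 324, 382 and 359 CPM. LDHA varied more between fish of a group than most genes of like level. Its coefficient of variation within groups was 21.3%, above that of 93% of 811 genes. It was not alone in this. For pgam1a (15.3%), TPI1 ENSDARG00000040988 (14.2%) and ENO1 ENSDARG00000013750 (15.4%) the shares of genes of like level below them were 80.8%, 80.5% and 80.4%. Copies high in the muscle-bearing libraries stood higher still, up to 99.9% for GAPDH. The lowest shares of the 30 genes were 23.3% for HK1 (7.38%), 24.1% for eno2 (7.06%) and 24.8% for PFKP ENSDARG00000028000 (7.17%). LDHA averaged 397 CPM in the first and 326 CPM in the second run of title numbers at 3.75 nM, 427 and 319.8 CPM at 1 year and 37.5 nM, and 399 and 336 CPM at 3 years. The second run was the lower in each group. The log2 differences of LDHA, second run minus first, were -0.29, -0.43 and -0.23. Of the most abundant genes of the 10 steps, 8, 9 and 6 were lower in the second run in these groups. Their median log2 differences were smaller, at -0.12, -0.08 and -0.00 in the same order. For all genes at a mean of at least 1 CPM the medians were 0.00, -0.00 and 0.01. The part of the runs in the spread of LDHA was not tested. Near-identical copies may share reads, and the sources used here do not give the handling of reads with several matches, so the split between copies of 1 symbol is uncertain.

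**Figure D2:**
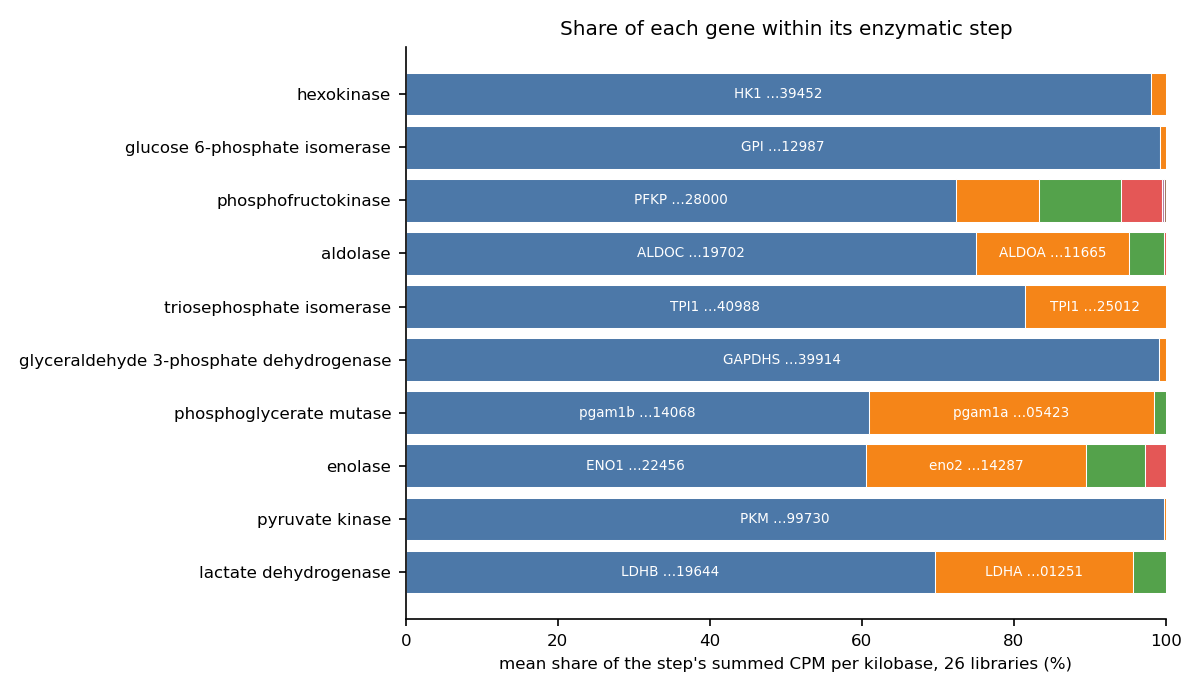
Share of each gene in the summed CPM per kilobase of its step, in percent, as the mean over 26 libraries; each row is a step and each colour a gene of that step, in order of its share. A single gene takes over 95% of the hexokinase, glucose 6-phosphate isomerase, glyceraldehyde 3-phosphate dehydrogenase and pyruvate kinase steps, whereas pgam1b (60.9%) and pgam1a (37.5%) share the mutase step.

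For age, brains of 3 year fish were compared with those of 1 year fish, all at 37.5 nM. Of 29 glycolytic genes that passed the filter on low counts, 1 was higher, 0 were lower and 28 did not pass edgeR's quasi-likelihood test at an adjusted p of 0.05; of all 19887 genes tested 7.79% passed (4.92% higher and 2.87% lower). At an unadjusted p under 0.05 stood 8 of the 29 genes, or 27.6%, beside 25.6% of all genes. Among the 8 were GAPDH, PGAM2 and PKM ENSDARG00000099860. Without the 1 year library with muscle RNA their log2 fold changes were -0.15, -0.51 and -0.41 (edgeR adjusted p = 0.8, 0.267 and 0.503). The median log2 fold change of the 29 genes was -0.06, with 23 of them below 0, beside a median of 0.01 and 9698 genes below 0 among all. The count below 0 depended in part on the 1 year library with muscle RNA. Without it the differences turned positive for GPI ENSDARG00000103826 (0.25), PFKM ENSDARG00000014179 (0.54), ALDOA ENSDARG00000034470 (0.03) and ENO3 (0.04). Those of GPI ENSDARG00000012987, ALDOC ENSDARG00000019702, PKM ENSDARG00000099730 and LDHA also turned positive, at 0.01 to 0.02, and none turned negative. None of the most abundant genes of the 10 steps passed by edgeR or DESeq2, 0 of them stood at an unadjusted p under 0.05, and their log2 fold changes lay between -0.14 and 0.06. For these 10 genes, and for 20 of the 29 in all, the 95% interval of the log2 fold change lay within 0.5 of 0. In bulk tissue, fewer cells of a type and less RNA per cell cannot be told apart. Markers of microglia and macrophages (11 genes, all with counts) summed to 802 to 1322 CPM at 1 year and 1039.7 to 1876 CPM at 3 years, and 12 pituitary markers to 6.72 to 324 and 5.35 to 16.2 CPM. For 10 endothelial markers the sums were 361 to 492 CPM (median 434) at 1 year and 299 to 485 CPM (median 317) at 3 years. For 21 eye and pineal markers they were 11.7 to 412 CPM and 9.75 to 28.7 CPM, with medians of 16.4 and 15.1 CPM. All markers of these lists had counts, and their part in the age differences was not tested.

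PFKL ENSDARG00000099755, a liver-type phosphofructokinase, rose from 92.4 ± 10 CPM (SD, n = 9) to 112 ± 15.8 CPM (n = 7). The 3 year libraries, from replicate 1 to 7, had 115, 102, 102, 97.3, 105, 124 and 142 CPM, and the 1 year libraries at 37.5 nM ranged from 84 over a median of 89 to 115 CPM. All 7 older fish lay above this 1 year median, and the groups overlap. In the 3.75 nM group the gene ranged from 79.8 to 121 CPM, so that only replicates 6 and 7 of the 3 year fish lay above every 1 year fish. The highest 1 year library at 37.5 nM was replicate 4, the one with muscle RNA. The next highest of that group, at 102 CPM, also lay above the lowest 3 year library. The log2 fold change was 0.28 (SE 0.08, edgeR adjusted p = 0.045), and 0.33 without that library (adjusted p = 0.0181). Within the runs of title numbers it was 0.14 in the first (adjusted p = 0.627) and 0.38 in the second (adjusted p = 0.0759). The call held in 5 of 16 fits that each left out 1 library. It was lost without any of replicates 1, 2, 3, 5, 6, 7 and 8 of the 1 year fish or replicates 1, 3, 6 and 7 of the 3 year fish, with log2 fold changes from 0.22 to 0.33 over all 16.

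The other phosphofructokinase genes did not pass. PFKL ENSDARG00000060504 went from 79.2 ± 7.89 to 90.2 ± 10.8 CPM (0.18, SE 0.07, adjusted p = 0.13) and PFKP ENSDARG00000012801 from 43.9 ± 6.93 to 52.4 ± 7.53 CPM (0.25, SE 0.11, adjusted p = 0.15). PFKP ENSDARG00000028000 went from 469 ± 40.3 to 450.1 ± 22.7 CPM (-0.06, SE 0.05). Of the genes with differences of the other sign, pgam1a had 119 ± 16.6 CPM at 1 year and 101 ± 11.9 CPM at 3 years (-0.24, SE 0.09, adjusted p = 0.102). No 3 year library of pgam1a lay above the 1 year median, although the ranges of 85.4 to 115 CPM and 100.3 to 151 CPM overlap. The corresponding values for ALDOA ENSDARG00000011665 were 660.4 ± 102 and 579.9 ± 52.3 CPM (-0.19, SE 0.09, adjusted p = 0.189), and its highest 1 year value, 872 CPM, belonged to the muscle-bearing replicate 4. At the last step LDHB differed by 0.06 (SE 0.07), ldhbb by -0.21 (SE 0.11, adjusted p = 0.227) and LDHA by -0.02 (SE 0.13).

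For concentration, 37.5 nM was compared with 3.75 nM in 1 year fish, with the same 9 libraries at 37.5 nM as in the age comparison. No glycolytic gene of 29 passed edgeR's test (0.0508% of 19691 genes did, 0.0355% higher and 0.0152% lower), none stood at an unadjusted p under 0.05 (9.25% of all genes did), and none passed with DESeq2. The median log2 fold change was 0.04 beside -0.01 for all genes. The most abundant genes of the 10 steps lay between -0.03 and 0.07, and for these 10, and again for 20 of 29, the 95% interval lay within 0.5 of 0. HK1 differed by -0.00 (SE 0.05), GAPDHS by 0.07 (SE 0.06), PKM ENSDARG00000099730 by -0.02 (SE 0.06) and LDHB by 0.04 (SE 0.06). PFKL ENSDARG00000099755 had 97.8 ± 11.9 CPM (n = 10) at 3.75 nM, which put the 1 year fish at 37.5 nM below it by 0.08 on the log2 scale (95% interval -0.23 to 0.07, adjusted p = 0.734).

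**Figure D3:**
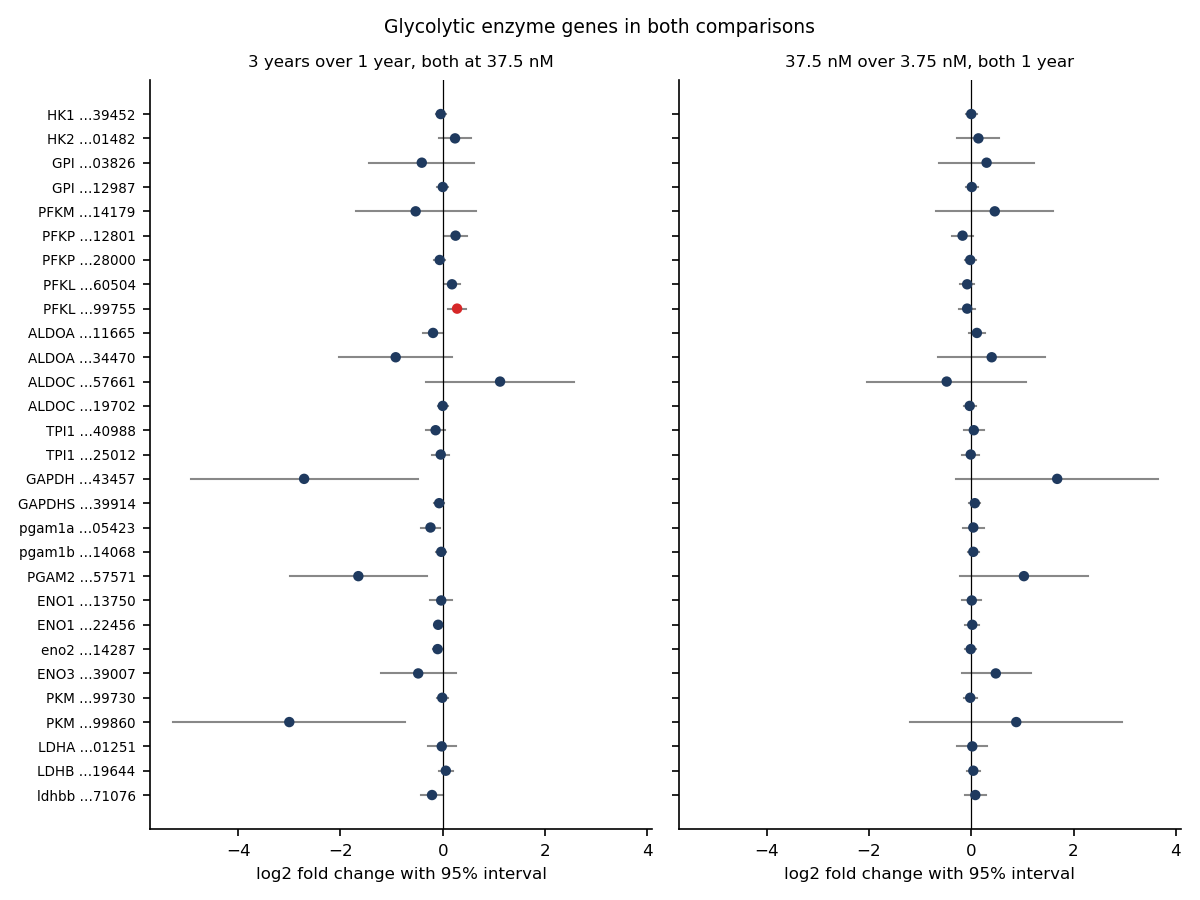
Log2 fold change of the 29 tested glycolytic genes with its 95% interval, on the left for 3 years over 1 year at 37.5 nM and on the right for 37.5 nM over 3.75 nM at 1 year. The red point is PFKL ENSDARG00000099755 (0.28), the gene that passed at an adjusted p of 0.05; the wide intervals belong to copies that were high in the muscle-bearing libraries, such as GAPDH (-2.71 and 1.68), and to ALDOC ENSDARG00000057661.

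Several less abundant copies were high in single libraries. In replicate 4 of the 1 year fish at 37.5 nM, 7 of 30 glycolytic genes exceeded 5 times the median of their group, against 1.88% of 17708 genes for which any library of that group did so at a mean of at least 1 CPM. In replicate 4 of the 3.75 nM fish, 3 of 29 did so, against 1.72% of 17800 genes, and in the 3 year fish 0 of 28, against 1.47% of 17987. All of these cases fell in the muscle-bearing libraries, which held 32.1% and 57.7% of all genes so marked in their groups. The group mean includes the high library, here and for all genes. Without replicate 4 the mean at 37.5 nM was 0.374 CPM for PFKM ENSDARG00000060797, 0.918 for PFKM ENSDARG00000014179 and 0.769 for PKM ENSDARG00000099860. At 3.75 nM it was 0.955 CPM for PKM ENSDARG00000099860. These copies entered the counts only through the library then counted, so the counts are a description and no test.

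The gene named GAPDH had 492 CPM in replicate 4 at 37.5 nM, and between 4.8 and 22.5 CPM in the other 8 libraries of that group. It had 97 CPM in replicate 4 at 3.75 nM and between 3.45 and 33.4 CPM in the other 9, and the 3 year fish ranged from 5.23 over a median of 9.35 to 18.3 CPM. The muscle-bearing libraries thus stood 49.3 and 9.73 times above the median of their own groups' other libraries. Even at 492 CPM the gene was below the GAPDHS level of every library on the scale per kilobase, where GAPDH reached at most 13.3% of the step. PKM ENSDARG00000099860 had 35.6 and 16.5 CPM in the same libraries, against at most 1.44 and 2.14 CPM in the others of their groups, and from 0.114 over 0.655 to 0.876 CPM at 3 years. ALDOA ENSDARG00000034470, the second aldolase A copy, had 40.6 and 20.3 CPM, against at most 5.27 and 8.45 CPM elsewhere in these groups.

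The pattern was also seen in muscle-type copies of other steps and in the second GPI copy. PGAM2, the mutase of muscle, had 24.8 and 8.1 CPM in the muscle-bearing libraries, where the other libraries of their groups reached 3.49 and 2.47 CPM. PFKM ENSDARG00000060797 had 19.8 and 3.52 CPM, against at most 0.903 and 0.713 CPM, and PFKM ENSDARG00000014179 had 9.87 and 4.58 CPM, against at most 1.41 and 2.24 CPM. GPI ENSDARG00000103826 had 16.5 CPM at 37.5 nM, 6.36 times the group median, and 7.66 CPM at 3.75 nM, 2.81 times it. ENO3, the enolase of muscle, fell just short of the threshold: it had 194 CPM in replicate 4 at 37.5 nM, 4.51 times the group median, and 84.1 CPM in replicate 4 at 3.75 nM, 2.2 times it. The most abundant genes of the 10 steps, in contrast, lay between 0.919 and 1.2 times the median of the other libraries in the first of these libraries and between 0.85 and 1.08 times in the second.

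**Figure D4:**
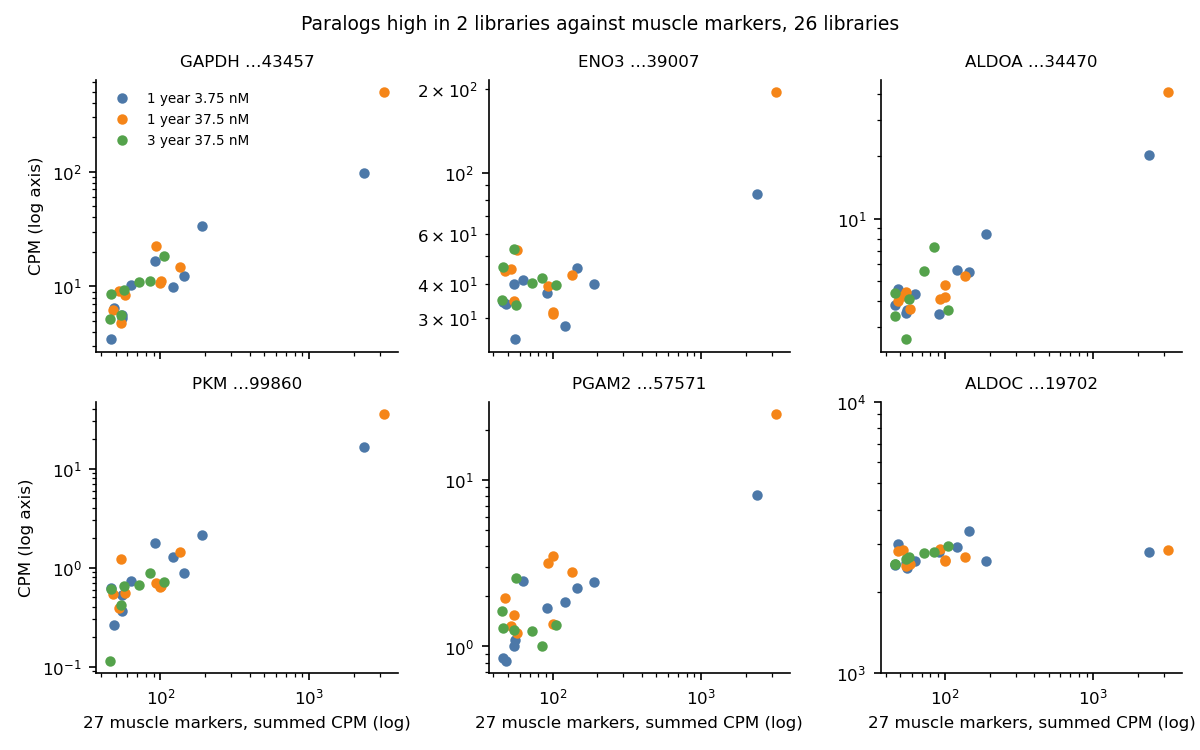
CPM of 5 copies that were high in single libraries and of the abundant ALDOC ENSDARG00000019702 against the summed CPM of 27 skeletal muscle markers, both on log axes, for 26 libraries coloured by group. The libraries at 2359 and 3191 CPM of markers hold the highest values of these copies, up to 492 CPM for GAPDH, while ALDOC ENSDARG00000019702 stays between 2434 and 3353 CPM throughout.

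In the age comparison PKM ENSDARG00000099860, GAPDH and PGAM2 had the largest fitted differences of the 29 genes, and none of the copies that were high in single libraries passed. GAPDH averaged 64.4 ± 160.4 CPM at 1 year and 9.9 ± 4.37 CPM at 3 years, a log2 fold change of -2.71 (SE 1.05, adjusted p = 0.118). Without the muscle-bearing library the value was -0.15 (adjusted p = 0.8). That library likewise moved PKM ENSDARG00000099860 from -3.00 to -0.41 once left out, PGAM2 from -1.65 to -0.51, ALDOA ENSDARG00000034470 from -0.92 to 0.03 and ENO3 from -0.48 to 0.04. With both muscle-bearing libraries left out, the dose difference of GAPDH went from 1.68 to -0.05 and that of PGAM2 from 1.03 to 0.39. The PFKM copy ENSDARG00000060797 was below the filter on low counts in both comparisons.

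A different pattern across fish was found for the second aldolase C copy, ALDOC ENSDARG00000057661. Aldolase C is the antigen zebrin II, which marks Purkinje cells of the cerebellum, in stripes in mammals and broadly in teleost fish. This copy ranged from 1.28 over a median of 151 to 283 CPM at 3.75 nM, from 1.78 over 143 to 238 CPM at 1 year and 37.5 nM, and from 90.1 over 281 to 367 CPM at 3 years. The lowest libraries were replicate 2 at 3.75 nM (1.28 CPM) and replicates 5 and 7 of the 1 year fish at 37.5 nM (1.78 and 3.83 CPM), followed by replicate 4 at 3.75 nM (19.9 CPM) and replicate 9 at 37.5 nM (28 CPM). Every other library had at least 82.8 CPM. Its coefficient of variation within groups was 54.5%, above that of 99.7% of 2066 genes of like level, whereas the abundant copy ALDOC ENSDARG00000019702 varied by 7.77%. Neither comparison called it: the age difference was 1.12 (SE 0.68, 95% interval -0.33 to 2.56, adjusted p = 0.318) and the dose difference -0.48 (SE 0.75, adjusted p = 0.869).

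Markers of cerebellar cells varied along with this gene. Both marker lists were added after its values had been seen, so the relation is a description of these libraries. The permutation p-values below do not allow for that choice of gene and lists, and so they are not a test of the relation. Over 26 libraries, log2 CPM of ALDOC ENSDARG00000057661 had a Pearson r of 0.84 with the mean log2 level of 10 Purkinje cell markers and a Spearman rho of 0.88 (permutation p = 1e-05 for each, the smallest that 100000 permutations can give, and 1.5e-05 for r adjusted over 3 lists). With 12 cerebellar granule cell markers r was 0.81 and rho 0.91 (permutation p = 1e-05 for each, adjusted p = 1.5e-05 for r), and with 27 skeletal muscle markers -0.23 and -0.22 (permutation p = 0.226 and 0.272). Without the 2 libraries farthest from the median score, r was 0.78 for Purkinje, 0.82 for granule cell and -0.43 for muscle markers. Within the first and the second run of title numbers, r was 0.80 and 0.87 for the former (12 and 14 libraries, permutation p = 0.0003 and 1e-05) and 0.78 and 0.85 for the latter (permutation p = 0.0105 and 1e-05). Within the 3 groups it lay between 0.77 and 0.94 for both lists.

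All 10 Purkinje and all 12 granule cell markers had counts in every group. The summed Purkinje markers ranged from 684 to 1081 CPM at 3.75 nM, from 683 to 1138 CPM at 1 year and 37.5 nM, and from 814 to 1133 CPM at 3 years. The summed granule cell markers ranged from 546 to 1888, from 761 to 2126 and from 1177 to 2197 CPM in the same groups, with medians of 1489.7, 1324 and 2074 CPM. The granule cell list includes a pair of SLC17A7 copies that the list of neuron markers also holds. The part of these markers in the differences of the aldolase C copy was not tested.

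**Figure D5:**
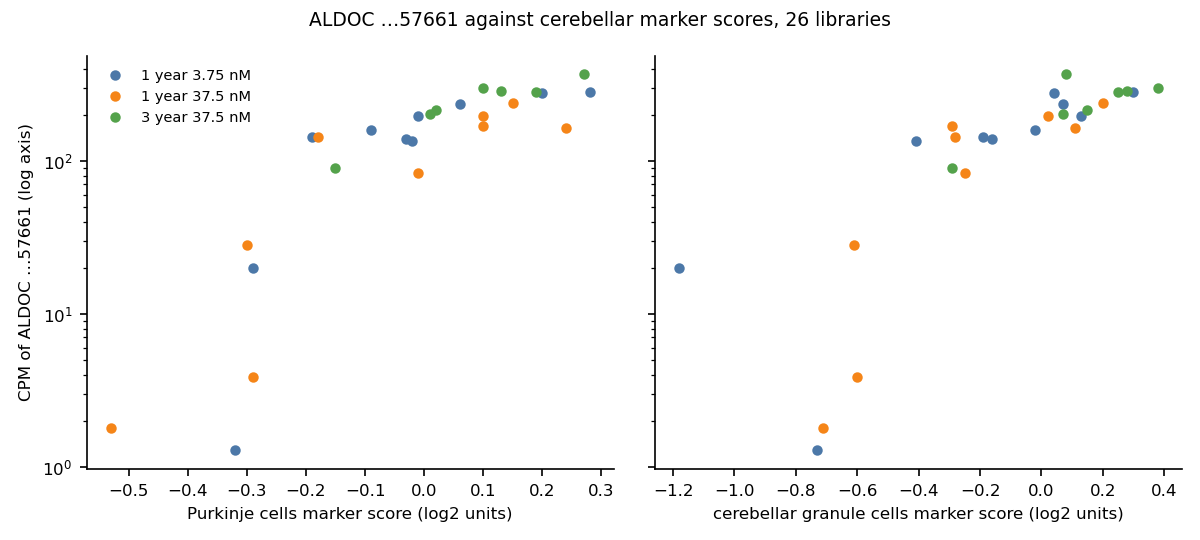
CPM of ALDOC ENSDARG00000057661 on a log axis against the score of Purkinje cell markers (left) and cerebellar granule cell markers (right), in log2 units from the median of 26 libraries; points are libraries, coloured by group. Libraries with low scores hold the low values, down to 1.28 CPM, and the highest value, 367 CPM, is a 3 year library.

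Genes around the pathway were taken from 7 lists of 103 rows in all, chosen with earlier results of these data known. Their shares are therefore set beside those of all genes as a description only. In the age comparison 4 of 94 tested genes were higher and 6 lower, or 10.6% beside 7.79% of all genes, with a median log2 fold change of -0.08. In the dose comparison 0 of 93 passed by edgeR, beside 0.0508% of all genes, and 0 passed by DESeq2. At an unadjusted edgeR p under 0.05 stood 3 of the 93, or 3.23%, beside 9.25% of all genes.

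Of the 23 other glycolytic enzymes and regulators tested, 2 rose and 2 fell. PFKFB3, which makes the sugar bisphosphate that activates phosphofructokinase, had 94.4 ± 23.2 CPM at 1 year and rose to 165 ± 29.6 CPM at 3 years (0.80 on the log2 scale, SE 0.16, edgeR adjusted p = 0.00618). The 3 year libraries had 175, 212, 160.2, 157, 115, 153 and 179.9 CPM, all above the 1 year median of 94.3 CPM. In the 3.75 nM group the gene ranged from 67 to 126 CPM, so that 6 of 7 older fish lay above every 1 year fish. The age difference was 0.91 in the first and 0.70 in the second run of title numbers, and the call held in 16 of 16 fits without 1 library. Other PFKFB genes did not pass. PFKFB2 had 141 ± 12.6 CPM at 1 year and 119 ± 29.3 CPM at 3 years (-0.25, SE 0.12, edgeR adjusted p = 0.198). PFKFB4 had 127 ± 41.7 and 90.6 ± 31.9 CPM (-0.49, SE 0.24, edgeR adjusted p = 0.208). The less abundant pfkfb1, pfkfb2a and pfkfb4a differed by 0.05, 0.13 and 0.01. The summed level of these genes was not tested. GALM, a mutarotase that feeds sugars into the pathway, rose from 2.78 ± 0.409 to 4.08 ± 0.748 CPM (0.55, SE 0.13, adjusted p = 0.0167). ENO4, an enolase-like gene of sperm in mammals, fell from 2.31 ± 0.615 to 1.32 ± 0.173 CPM (-0.81, SE 0.18, adjusted p = 0.0107). BPGM, the mutase that makes the bisphosphoglycerate of red blood cells, fell from 67 ± 6.05 to 56.7 ± 6.31 CPM (-0.25, SE 0.07, adjusted p = 0.0449), a call that held in 5 of 16 fits without 1 library.

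In the other lists single genes passed. Of 18 genes for the entry of pyruvate into mitochondria, pdha1a, the catalytic alpha subunit of pyruvate dehydrogenase, fell from 317 ± 31.5 to 273 ± 19 CPM (-0.22, SE 0.06, adjusted p = 0.0491) and kept its call in 3 of 16 fits without 1 library. Of 18 glycogen genes, PYGB, the brain type of glycogen phosphorylase, rose from 32.1 ± 3.73 to 41.4 ± 2.51 CPM (0.36, SE 0.07, edgeR adjusted p = 0.0059). In the 3.75 nM group it ranged from 29.7 to 41.6 CPM, which overlaps the 37.8 to 45.1 CPM of the 3 year fish. The more abundant phosphorylase gene PYGM ENSDARG00000013317 had 346 ± 40.5 and 369.7 ± 36.1 CPM (0.09, SE 0.08, edgeR adjusted p = 0.479). PHKG1 ENSDARG00000030604, a subunit of the kinase that activates phosphorylase, fell from 65.5 ± 12.4 to 45.9 ± 12.4 CPM (-0.52, SE 0.15, edgeR adjusted p = 0.0498, called in 4 of 16 such fits). The less abundant copy PHKG1 ENSDARG00000069498 differed with the other sign, with 6.44 ± 2.94 and 11 ± 3.77 CPM (0.77, SE 0.26, edgeR adjusted p = 0.0793). Among 7 gluconeogenesis genes slc37a4b, a glucose 6-phosphate transporter, fell from 26.8 ± 3.3 to 21.4 ± 2.04 CPM (-0.33, SE 0.08, adjusted p = 0.0205).

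Of the 10 genes listed for the shuttles that carry reducing equivalents to mitochondria, 1 rose and 1 fell. GPD1 ENSDARG00000043701, a minor copy of a cytosolic glycerol phosphate dehydrogenase, fell from 3.32 ± 1.2 to 1.43 ± 0.332 CPM (-1.21, SE 0.22, edgeR adjusted p = 0.00423). Its highest 3 year library had 1.95 CPM and its lowest 1 year library at 37.5 nM 2.06 CPM. At 3.75 nM replicate 7 also had 1.95 CPM. The abundant copy GPD1 ENSDARG00000043180 had 57.8 ± 13 and 65.8 ± 9.65 CPM (0.19, SE 0.13, adjusted p = 0.401), and gpd1c had 2.23 ± 0.522 and 3.21 ± 0.947 CPM (0.53, SE 0.19, adjusted p = 0.0945). The gene mdh1b, a malate dehydrogenase by its name, rose from 0.621 ± 0.156 to 4.4 ± 2.78 CPM (2.81, SE 0.37, edgeR adjusted p = 0.000652). Its part in the shuttles was not tested. Its 3 year values spread widely, from 0.741 CPM in replicate 5 to 9.69 CPM in replicate 7, and only replicate 5 fell within the range of the 1 year fish. The malate dehydrogenase names mdh1aa and mdh1ab of this list had no row, so mdh1b does not stand for them. MDH2, a far more abundant malate dehydrogenase gene, had 449 ± 52.9 CPM at 1 year and 425 ± 26.8 CPM at 3 years (-0.08, SE 0.07, adjusted p = 0.494). No gene of 6 in the pentose phosphate pathway and none of 12 tested for hypoxia-inducible factors passed at adjusted p 0.05, beside 7.79% of all genes. At an unadjusted edgeR p under 0.05 stood 0 and 2 of them, or 0% and 16.7%, beside 25.6% of all genes. Lists of 6 and 12 genes are too short to tell 0 calls from the share of all genes. DESeq2 called 0 in either list, and the median log2 fold changes were -0.07 and -0.14.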

How the data were processed

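Per the labels' protocols, the kit was Illumina's TruSeq RNA version v2, which does not mark strand. The submitters' processing notes name CASAVA 1.8.2, STAR 2.4.1d, featureCounts 1.4.6-p4 and the build GRCz10; the sources used here do not give annotation release, strand setting or handling of multiply matching reads. The deposited count tables hold whole-number counts per gene, not normalized. The tables deposited by the authors as RPKM were read as a score: each value equals the count divided by gene length and by a library total that changes with the row, repeating every 50 rows. Over 8235 genes this gave 1 length per gene with a median relative SD of 1.68e-05 between libraries, and it yielded lengths for 20644 genes. The scores were used for these lengths only. No column of other samples was present.

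CPM used TMM library sizes over all 26 libraries. Tests were edgeR 4.0.16 (R 4.3.3) quasi-likelihood F tests with robust dispersion and filterByExpr, adjusted by Benjamini-Hochberg over all genes tested at 0.05, on the libraries compared, without covariates. Standard errors are those of log2 fold changes. The procedure was tested on simulated data. DESeq2 1.42.0, which replaces outlying counts by default in groups of this size, was an alternative. A library was called high in a tissue at a marker score over 1.5 log2 units above the median. Correlations used a pseudocount of 0.5 CPM, SciPy 1.17.1 and 100000 permutations, two-sided.

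Symbols came from a names table that named 26269 of 32105 genes. Named are the most abundant gene of each step, genes past the test and genes with 1 library over 5 times the group median at a group mean of at least 1 CPM; ENO3, PGK2, LDHA and the genes given in the age and dose comparisons as not passing were named after their values were seen. The members and lists were chosen with earlier results of these data known, and the Purkinje and granule cell lists after the aldolase C values. Each title gives a fish number of its own; the labels do not state pooling, so p-values measure the spread between these samples. Replicate numbers were given in accession order and pair no samples. No sequences are shown.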

Additional observations from a re-analysis of the deposited data

Results flagged for a closer look

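Of 90 sets of values (30 genes in 3 groups), 19 held a highest or lowest library whose gap to its nearest neighbour was large against the range of the group by Dixon's criterion; chance flags about 1 set in 20. In 16 of the 19 the library was one with muscle RNA. In replicate 4 of the 1 year fish at 37.5 nM these were GAPDH (492 CPM), ENO3 (194), ALDOA ENSDARG00000034470 (40.6), PKM ENSDARG00000099860 (35.6), PGAM2 (24.8), PFKM ENSDARG00000060797 (19.8), GPI ENSDARG00000103826 (16.5) and PFKM ENSDARG00000014179 (9.87 CPM). In replicate 4 of the 3.75 nM fish they were GAPDH (97 CPM), ENO3 (84.1), ALDOA ENSDARG00000034470 (20.3), PKM ENSDARG00000099860 (16.5), HK2 (9.64), PGAM2 (8.1), PFKM ENSDARG00000014179 (4.58) and PFKM ENSDARG00000060797 (3.52 CPM).

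HK2 does not stand out in the other muscle-bearing library: it had 9.64 CPM in replicate 4 at 3.75 nM, where the other libraries reached 5.63 CPM, and the highest library at 1 year and 37.5 nM was replicate 7 with 7.18 CPM. The 3.75 nM library was also the one with the high skin score.

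The other 3 cases lay outside these libraries. PFKP ENSDARG00000028000 was lowest in replicate 8 of the 1 year fish at 37.5 nM (383 CPM, the others from 449 to 512). TPI1 ENSDARG00000040988 was highest in replicate 1 of the 3 year fish (512 CPM, the others from 338 to 412), and PGAM2 in replicate 5 of that group (2.59 CPM, the others from 1.01 to 1.63).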

How the results depend on the processing

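The counts for the age comparison depended on the setting. PFKL ENSDARG00000099755 stayed called with DESeq2 (0.27, adjusted p = 0.0246), with title run as a covariate (0.28, adjusted p = 0.0449) and with all 26 libraries in 1 fit (0.29, adjusted p = 0.0318). It was lost without a filter on low counts (0.27, adjusted p = 0.058), within either run, and without the 12 libraries high in muscle, eye, skin or pituitary markers (0.23, adjusted p = 0.227); each of these 4 settings called 0 glycolytic genes, and fits without 1 library called 0 to 1. With all 26 libraries 2 were called, the second being PFKM ENSDARG00000060797 (-3.84, adjusted p = 0.0442). The other fits tested it without a call or did not test it. Its 19.8 CPM in the muscle-bearing library at 37.5 nM compare with at most 0.903 CPM in other fish of that group. Median levels were 0.35 CPM in the younger and 0.193 CPM in the older group. DESeq2, which replaces outlying counts, gave -1.04 (adjusted p = 0.209). No fit without the muscle-bearing library is given for this gene, so the part of that library in the call was not tested. All genes called numbered 1549, 2899 with DESeq2, 16 in the first run, 135 without the 12 libraries, and 942 to 2156 without 1 library. Other pathway genes called numbered 10, 0 in the first run, 6 in the second, and 1 without the 12 libraries, and the fits without 1 library gave 7 to 14. In the dose comparison 0 glycolytic genes and 0 other pathway genes were called under any setting; of all genes 10 were called, 65 with DESeq2, 18 with all 26 libraries, 24 with the run as covariate, 3 without the muscle-bearing libraries, 0 in the second run or without the 12 libraries, and 2 to 12 without 1 library. The cause of these differences was not tested; the settings with fewer libraries also have less power by construction.

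Signs of differences near 0 or of copies high in single libraries changed as follows, at the printed precision, and no difference that changed sign was called. With DESeq2, which replaces outlying counts, the age difference changed sign for PFKM ENSDARG00000014179 (0.49), ALDOA ENSDARG00000034470 (0.03) and ENO3 (0.03). In the second run the age difference changed sign for GPI ENSDARG00000103826 (0.61), PFKM ENSDARG00000014179 (0.16), ALDOA ENSDARG00000034470 (0.22), TPI1 ENSDARG00000025012 (0.05), ENO1 ENSDARG00000013750 (0.03), ENO3 (0.06), PKM ENSDARG00000099730 (0.05) and LDHA (0.06). Without the muscle-bearing libraries the age difference changed sign for GPI ENSDARG00000103826 (0.25), PFKM ENSDARG00000014179 (0.54), ALDOA ENSDARG00000034470 (0.03), ENO3 (0.04), PKM ENSDARG00000099730 (0.01) and LDHA (0.02). Without libraries high in any of 4 other tissues the age difference changed sign for GPI ENSDARG00000103826 (0.84), PFKM ENSDARG00000014179 (0.83), ALDOA ENSDARG00000034470 (0.02), ENO3 (0.07) and LDHB (-0.03). With 1 library left out at a time, age differences that changed sign at least once spanned GPI ENSDARG00000103826 (-0.6 to 0.25), PFKM ENSDARG00000014179 (-0.64 to 0.54), ALDOA ENSDARG00000034470 (-1.09 to 0.03), TPI1 ENSDARG00000025012 (-0.08 to 0.01), ENO1 ENSDARG00000013750 (-0.08 to 0.03), ENO3 (-0.56 to 0.04), PKM ENSDARG00000099730 (-0.03 to 0.02) and LDHA (-0.1 to 0.03).

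With DESeq2 the dose difference changed sign for PFKM ENSDARG00000014179 (-0.6), ALDOA ENSDARG00000034470 (-0.12), GAPDH (-0.05), PGAM2 (-0.11), ENO3 (-0.02) and PKM ENSDARG00000099860 (-0.27). In the first run of title numbers the dose difference changed sign for HK2 (-0.29), PFKP ENSDARG00000028000 (0.02), PFKL ENSDARG00000099755 (0.06), ALDOC ENSDARG00000057661 (0.6), TPI1 ENSDARG00000040988 (-0.03), TPI1 ENSDARG00000025012 (0.04), ENO1 ENSDARG00000022456 (-0.03), eno2 (0.02) and PKM ENSDARG00000099730 (0.01). In the second run the dose difference changed sign for GPI ENSDARG00000103826 (-0.69), PFKM ENSDARG00000014179 (-0.22), ALDOA ENSDARG00000034470 (-0.12), ALDOC ENSDARG00000019702 (0.02), GAPDH (-0.08), ENO1 ENSDARG00000013750 (-0.02), PKM ENSDARG00000099860 (-0.39) and LDHA (-0.01). Without the muscle-bearing libraries the dose difference changed sign for GPI ENSDARG00000103826 (-0.14), PFKM ENSDARG00000014179 (-0.17), ALDOA ENSDARG00000034470 (-0.14), GAPDH (-0.05), ENO1 ENSDARG00000013750 (-0.02) and PKM ENSDARG00000099860 (-0.3). Without libraries high in any of 4 other tissues the dose difference changed sign for GPI ENSDARG00000103826 (-0.46), PFKM ENSDARG00000014179 (-0.07), ALDOA ENSDARG00000034470 (-0.07), TPI1 ENSDARG00000025012 (0.08), ENO1 ENSDARG00000013750 (-0.04), PKM ENSDARG00000099730 (0.01) and PKM ENSDARG00000099860 (-0.45). With 1 library left out at a time, dose differences that changed sign at least once spanned GPI ENSDARG00000103826 (-0.36 to 0.52), GPI ENSDARG00000012987 (-0.02 to 0.04), PFKM ENSDARG00000014179 (-0.61 to 0.89), PFKP ENSDARG00000028000 (-0.03 to 0.02), ALDOA ENSDARG00000034470 (-0.55 to 0.82), ALDOC ENSDARG00000019702 (-0.05 to 0.01), TPI1 ENSDARG00000025012 (-0.04 to 0.03), GAPDH (-0.87 to 2.5), PGAM2 (-0.11 to 1.53), ENO1 ENSDARG00000013750 (-0.04 to 0.05), ENO1 ENSDARG00000022456 (-0.01 to 0.05), eno2 (-0.02 to 0.01), ENO3 (-0.03 to 0.67), PKM ENSDARG00000099730 (-0.05 to 0.01), PKM ENSDARG00000099860 (-1.71 to 2.29) and LDHA (-0.03 to 0.09).

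Of 696 age and 783 dose values under other settings, 36 and 76 had the opposite sign at 2 decimals (87 and 122 differed in sign if values printed as 0.00 are included), and 15 age values lost the call of PFKL ENSDARG00000099755. Group mean CPM with unscaled library totals, or without the muscle-bearing libraries, stayed within 1 SD of the values given in all 150 cases. The SD includes the library left out, so leaving out 1 library could not move a mean by 1 SD. The cases without the muscle-bearing libraries are therefore no test of stability. For GAPDH at 1 year and 37.5 nM that SD was 160.4 CPM, and the mean was 64.4 CPM with and 11 CPM without replicate 4. Genes with a handful of CPM rest on few counts: 1 CPM is 20.6 counts in the smallest library. No paired analysis was possible because the labels give the groups no shared replicate numbers.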
